A study of Mus musculus with 9 samples.

Results

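The genes described here are 10 components of the Notch pathway, chosen by symbol as 3 receptors (Notch1, Notch2, Notch3), 2 ligands (Jag1, Dll1) and 5 genes that Notch signalling commonly switches on (Hes1, Hey1, Hey2, Heyl, Nrarp). All 10 were found by Ensembl identifier among the 47937 genes of the count table, and 7 of them passed the filter on low counts and were tested. Hey1, Hey2 and Heyl did not. RNA of mouse embryonic fibroblasts (MEFs) had been sequenced for 3 genotypes with 3 libraries each: wild type (WT), Suv39h1/Suv39h2 KO (S1S2) and G9a/Glp KO (G9Gl), where G9a and Glp are the proteins of Ehmt2 and Ehmt1. Suv39h1, Suv39h2, G9a and Glp are enzymes that methylate lysine 9 of histone H3 (H3K9). Per the study's methods, the WT cells are themselves a clone with a conditional, tamoxifen-inducible Eset1 allele, both mutants were derived from that clone with CRISPR/Cas9, and each mutant was 1 clone, picked because western blots no longer showed its targets. Genotype and clone therefore cannot be told apart in any comparison below, and the labels name no age, strain or tamoxifen treatment for these libraries. The methods also describe a tamoxifen-inducible Cre construct with puromycin resistance, introduced again after CRISPR/Cas9, and lines kept under puromycin. An effect of this on the comparisons was not tested.

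Notch receptors are single-pass membrane proteins that are activated by ligands of the Jagged and Delta families on a neighbouring cell. Ligand binding exposes the receptor to cleavage by Adam proteases and then by gamma-secretase, and the freed intracellular domain enters the nucleus, where it joins the DNA-binding protein Rbpj and a Mastermind coactivator. The complex activates genes of the Hes and Hey families, which encode transcriptional repressors, and Nrarp, which encodes a small ankyrin-repeat protein that limits Notch signalling. In mesenchymal cells, Notch2 and Notch3 are known from smooth muscle and pericytes.

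Libraries held between 21319778 and 32157623 gene counts, the smallest being those of S1S2 cells, and 3 counts, taken as the floor of detection, corresponded to between 0.0923 and 0.141 CPM (counts scaled to library size). The fibroblast label was checked on 10 marker genes, all of which were above the floor in at least 1 library of each genotype, with a summed level of 8289 to 9601 CPM in WT, 5682 to 5733 in S1S2 and 6286 to 7105 in G9Gl libraries. The 6 epithelial markers summed to 0.298 to 0.548 CPM in WT, 4.70 to 5.60 in S1S2 and 4.21 to 5.39 CPM in G9Gl libraries, the 6 neural markers to 25.1 to 27.1, 38.1 to 42.5 and 18.6 to 26.5 CPM, and the 5 macrophage markers to at most 4.93 CPM. The targeted transcripts fell by 1.36 (Suv39h1, in S1S2), 1.20 (Ehmt2, in G9Gl) and 1.04 (Ehmt1, in G9Gl) on the log2 scale, while Suv39h2 rose by 0.70 in S1S2 cells. The mutations were selected at the protein level, so these transcript levels do not test the labels.

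Among the 10 genes, Notch2 had the highest level in WT fibroblasts, and Hes1 the highest of the 5 targets. On the scale of RPKM (CPM divided by exon length in kilobases), which allows levels of different genes to be compared, the WT level of Notch2 was 17.8 ± 1.27 (SD, n = 3). It was followed by Hes1 at 4.83 ± 0.257, Notch1 at 3.34 ± 0.152, Jag1 at 2.45 ± 0.302, Notch3 at 1.89 ± 0.182 and Nrarp at 1.03 ± 0.200 RPKM. The ranges of the 3 WT libraries did not overlap between any neighbours in this order. Dll1 (0.139 RPKM) and Hey1 (0.0690 RPKM) were far lower, and Hey2 and Heyl, at 0.00702 and 0 RPKM, could not be ordered at this depth. The order was the same for WT cells when the longest transcript replaced the union of all exons as gene length, a check added after the data had been seen.

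**Figure D1:**
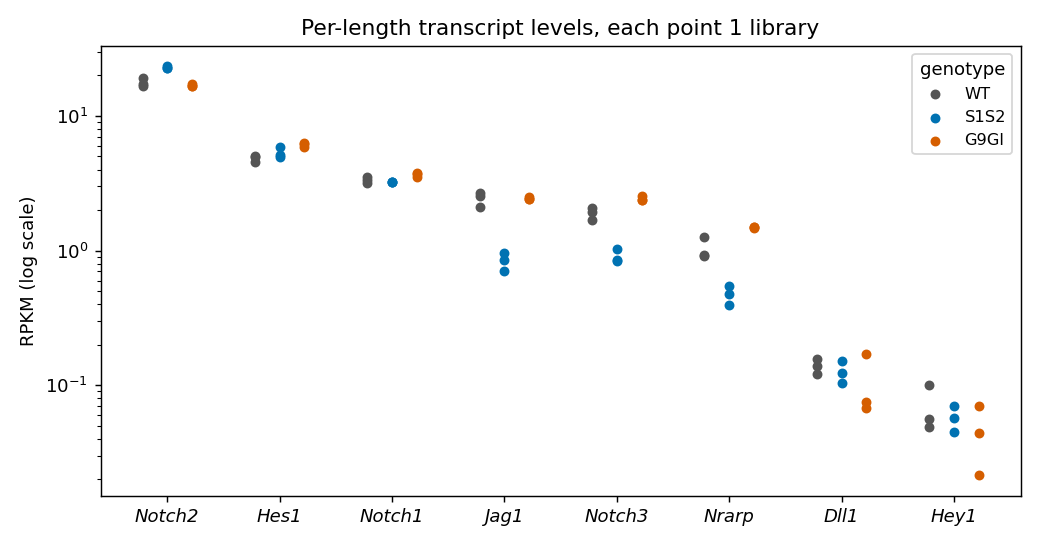
Per-length level of 8 Notch pathway genes in RPKM on a log axis, with each point 1 library, coloured by genotype, and genes ordered by their WT mean. Notch2 is highest in all 3 genotypes, while Jag1, Notch3 and Nrarp sit lower in S1S2 libraries than in both other genotypes. Hey2 and Heyl, with libraries at 0, are not drawn.

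In the mutants the order differed from that of WT between genes whose libraries overlapped. In S1S2 cells, Notch3 (0.906 ± 0.107 RPKM) and Jag1 (0.841 ± 0.126 RPKM) lay next to each other with overlapping libraries, and both were below Notch1 at 3.24 ± 0.0150 RPKM. In G9Gl cells, Jag1 and Notch3 were again neighbours that overlapped, at 2.451 ± 0.0619 and 2.445 ± 0.0895 RPKM. Hey2 and Dll1 also overlapped there, at 0.138 ± 0.102 and 0.104 ± 0.0571 RPKM.

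The promoters of the genes on which the comparisons turn are shown for reference, because 3 of them fell in S1S2 cells and the fourth, Hey2, had 3 counts over the WT libraries and 56 over the G9Gl libraries. Of the 10 genes, 7 have an entry in the RefSeq promoter table for GRCm38.p6. The targets Hes1, Hey1 and Heyl have none, so they were not searched for the motif. The stretch from 250 bases before to 30 bases after the annotated start is printed 5′ to 3′, with matches to GTGGGAA, the binding motif of Rbpj, or to its reverse complement in capitals.
Notch3 (chr17:32166861-32167140, minus strand): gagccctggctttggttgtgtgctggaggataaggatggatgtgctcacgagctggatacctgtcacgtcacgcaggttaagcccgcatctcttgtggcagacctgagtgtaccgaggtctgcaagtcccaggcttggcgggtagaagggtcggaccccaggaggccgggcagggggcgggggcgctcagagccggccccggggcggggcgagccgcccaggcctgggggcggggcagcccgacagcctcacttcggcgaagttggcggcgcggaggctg
Jag1 (chr2:137116491-137116770, minus strand): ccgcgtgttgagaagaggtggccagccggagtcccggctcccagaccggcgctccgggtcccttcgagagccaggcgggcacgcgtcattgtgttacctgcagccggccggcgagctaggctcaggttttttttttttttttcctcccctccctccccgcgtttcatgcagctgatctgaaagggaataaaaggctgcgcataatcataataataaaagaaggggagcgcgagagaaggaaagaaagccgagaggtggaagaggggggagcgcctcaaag
Nrarp (chr2:25180508-25180787, plus strand): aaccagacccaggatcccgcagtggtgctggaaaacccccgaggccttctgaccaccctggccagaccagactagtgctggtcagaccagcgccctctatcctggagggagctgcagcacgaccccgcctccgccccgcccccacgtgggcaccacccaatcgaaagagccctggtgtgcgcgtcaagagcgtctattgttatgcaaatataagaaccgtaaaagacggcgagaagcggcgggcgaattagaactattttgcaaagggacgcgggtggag
Hey2 (chr10:30842754-30843033, minus strand): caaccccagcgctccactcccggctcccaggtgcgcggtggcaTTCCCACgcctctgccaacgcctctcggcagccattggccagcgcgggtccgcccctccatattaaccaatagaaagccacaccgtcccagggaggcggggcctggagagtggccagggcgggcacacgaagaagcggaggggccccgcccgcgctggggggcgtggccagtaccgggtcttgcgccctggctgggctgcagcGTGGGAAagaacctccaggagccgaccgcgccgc

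In the window of 280 bases, only Hey2 of the 7 genes with a promoter entry held the motif. Its 2 matches lie on opposite strands and begin 207 and 4 bases before the start. Of all 32851 promoter windows of this length, 5.94% held at least 1 match, and of the 27025 genes they belong to, some with several windows, 6.74% did. Among the other pathway genes described below, 7 of 49 with a promoter entry held it, namely Aph1a, Hes5, Hes7, Lfng, Psen2, Rbpjl and Spen. These 49 are not the same set as the 49 that were tested for expression. A match describes letters in this window and is not a measurement of binding.

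In S1S2 cells a receptor, a ligand and a target of the pathway were lower than in WT. Notch3, Jag1 and Nrarp each fell by more than 2-fold, whereas Notch2 rose modestly and Notch1, Dll1 and Hes1 did not pass the test. The test was edgeR's quasi-likelihood test over 15540 genes, and to be called a gene needed an adjusted p (Benjamini-Hochberg) no higher than 0.01 together with a fold change of 2 or more. By that rule 3 of the 7 tested genes were called, all lower. Over all genes tested, 9.0% were called in this comparison, 4.66% higher and 4.34% lower. With no cutoff on the fold change, 1 of the 7 tested genes rose and 3 fell at that adjusted p, where 20.3% and 17.6% of all genes tested did. The libraries of S1S2 and WT did not overlap for 4 of the 7 tested genes and for 56.0% of all genes tested. In bulk RNA, fewer cells that express a gene and less RNA per cell cannot be told apart.

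Notch3 (ENSMUSG00000038146, chromosome 17, 32120820 to 32166852, GRCm38), a receptor known for its role in mural cells of vessels, was read at 15.6, 13.7 and 16.6 CPM in WT libraries. It stood at 8.32, 6.89 and 6.77 CPM in S1S2 and at 19.3, 20.6 and 19.4 CPM in G9Gl libraries. The 3 genotypes formed separate groups, with S1S2 lowest and G9Gl highest. The log2 fold change of S1S2 against WT was -1.07 (± 0.124 SE, with an adjusted p of 1.01e-07). It lies at the cutoff. The median gene of chromosome 17 was at -0.10 in this comparison, and with chromosome medians removed Notch3 was at -0.97 and no longer called.

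Jag1 (ENSMUSG00000027276.7, chromosome 2, 137081456 to 137116644), the ligand with the higher level of the 2 listed, was read at 14.8, 15.7 and 12.3 CPM in WT and at 5.61, 4.96 and 4.14 CPM in S1S2 libraries. It showed the largest fall among the tested genes of the group, with a log2 fold change of -1.54 (± 0.164 SE, with an adjusted p of 8.30e-09). It was also the only one of the 3 that stayed called when edgeR's glmTreat tested against a fold change of 2. G9Gl libraries, at 14.0, 14.2 and 14.7 CPM, lay within the WT range.

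Nrarp (ENSMUSG00000078202.3, chromosome 2, 25180758 to 25183339) was read at 3.26, 2.38 and 2.35 CPM in WT and at 1.01, 1.24 and 1.41 CPM in S1S2 libraries, from 22 to 34 counts per S1S2 library. WT replicate 1 stood above the other WT libraries, but all 3 exceeded every S1S2 library. The log2 fold change was -1.13 (± 0.200 SE, with an adjusted p of 1.48e-04), and without WT replicate 1 it was -0.96 and fell short of the cutoff. An antisense gene, Gm38287, contains 76.1% of the 75-base stretches of Nrarp, and whether strand was used in counting is not given in the sources used here. Gm38287 itself was assigned at most 7 counts in any library.

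Notch2 and Hes1, the receptor and the target with the highest levels, did not follow these falls. Notch2 (chromosome 3, 98013527 to 98150361) was read at 187, 207 and 181 CPM in WT and at 245, 252 and 244 CPM in S1S2 libraries. All S1S2 libraries were above all WT libraries, but the log2 fold change of 0.36 (± 0.060 SE, with an adjusted p of 6.24e-06) was under the cutoff. Its chromosome had a median of 0.10, and Notch2 stood at 0.26 with chromosome medians removed. Hes1 (chromosome 16, 30064384 to 30067796), the classical Notch-induced repressor, was read at 10.2, 10.1 and 9.25 CPM in WT and at 10.2, 10.5 and 11.9 CPM in S1S2 libraries. The groups overlapped, and the log2 fold change of 0.14 (± 0.083 SE, with an adjusted p of 0.213) did not pass the test.

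Notch1 (chromosome 2, 26457903 to 26516663), the receptor best known from lymphocytes, was read at 45.4 to 49.7 CPM in WT and at 46.0 to 46.4 CPM in S1S2 libraries, a log2 fold change of -0.04 (± 0.038 SE, with an adjusted p of 0.540). Dll1 (chromosome 17, 15367354 to 15376872), a Delta ligand, had 16 to 20 counts per WT and 11 to 14 per S1S2 library. Its log2 fold change of -0.15 (± 0.169 SE, with an adjusted p of 0.762) did not pass the test, and at this depth a change of that size was not detectable.

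**Figure D2:**
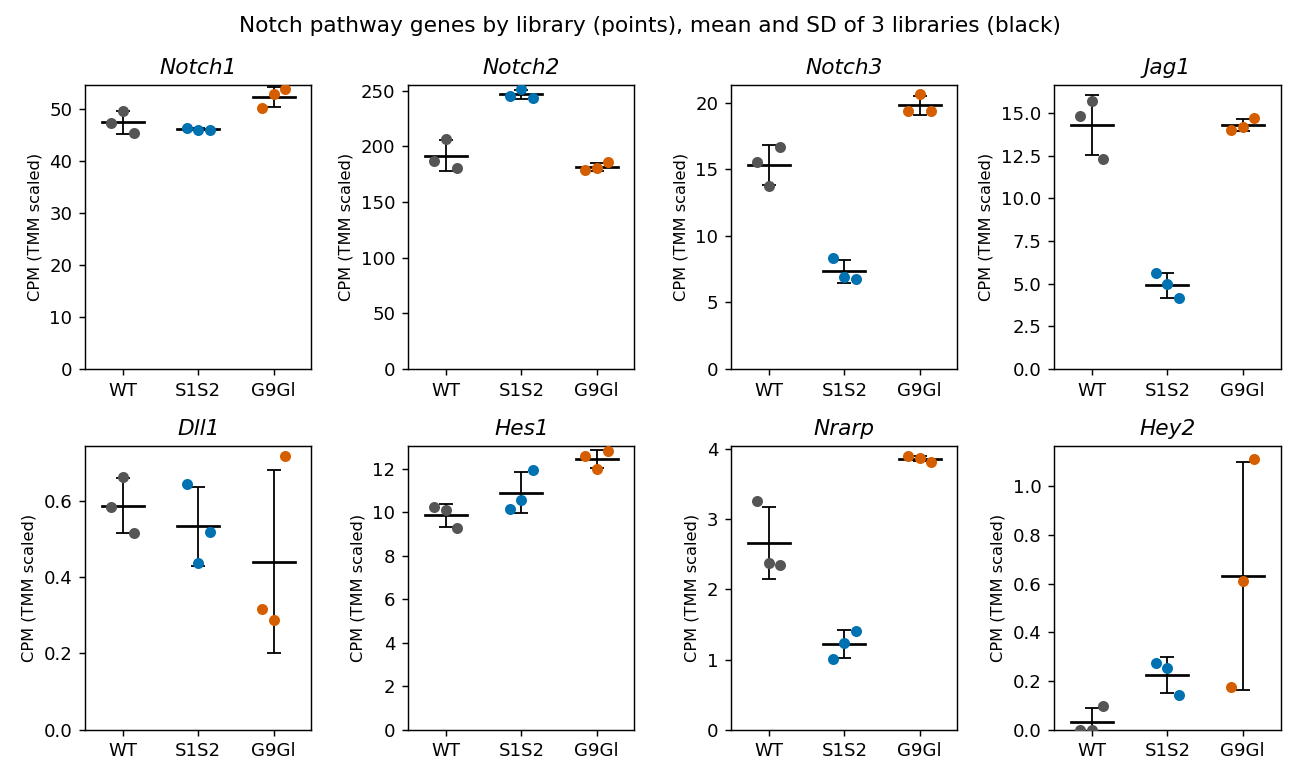
CPM of 8 Notch pathway genes by genotype, with points for the 3 libraries, a black line for the mean and bars for the SD, each panel starting at 0. Notch3, Jag1 and Nrarp are lowest in all S1S2 libraries, Notch2 is highest there, and Hey2 spreads from 0.175 to 1.11 CPM in G9Gl cells.

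In G9Gl cells none of the 7 tested genes was called by the same edgeR test. Over all genes tested, 10.2% were called in this comparison, 6.77% higher and 3.40% lower. At an unadjusted p under 0.05, 4 of the 7 tested genes differed, all higher, where 52.4% of all genes tested did. DESeq2, which also tests genes with few counts, called 1, Hey2. Without the fold change cutoff, 2 of the 7 tested genes passed an adjusted p of at most 0.01, Notch3 and Hes1, both higher, where 35.0% of all genes tested passed and 19% were higher. At 0.05 it was 4 of the 7, where 45.9% of all genes tested passed. Libraries did not overlap for 4 of the 7 tested genes and for 52.8% of all genes tested.

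Notch3 rose slightly, from 15.3 ± 1.47 CPM in WT to 19.8 ± 0.724 CPM in G9Gl cells (SD, n = 3), which is a change of 0.37 on the log2 scale (± 0.086 SE, with an adjusted p of 0.00185 by edgeR). Hes1 rose from 9.85 ± 0.523 to 12.4 ± 0.431 CPM, a log2 fold change of 0.34 (± 0.053 SE, with an adjusted p of 0.00418). Both sets of libraries were separated from WT. The median gene of chromosome 16 was at -0.20, and with chromosome medians removed Hes1 was at 0.54. With 1 library left out, the adjusted p reached 0.0107 for Notch3 and 0.0197 for Hes1. Nrarp was also higher in every G9Gl library, at 3.90, 3.88 and 3.82 CPM, and with a log2 fold change of 0.53 (SE 0.151) its adjusted p of 0.0114 missed the threshold. Notch1, at 50.2, 53.0 and 53.8 CPM, lay above the WT libraries by a log2 fold change of 0.14 (± 0.049 SE, with an adjusted p of 0.0300).

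Jag1 showed a log2 fold change of 5.18e-04 (± 0.107 SE, with an adjusted p of 0.998) and Notch2 one of -0.08 (± 0.061 SE, with an adjusted p of 0.194), with libraries that overlapped those of WT for both. Dll1 had 9, 8 and 22 counts in the G9Gl libraries and a log2 fold change of -0.39 (± 0.374 SE, with an adjusted p of 0.407). It was -0.20 without G9Gl replicate 1, -0.17 without replicate 2 and -0.95 without replicate 3. Replicate 3 stood above every WT library, and the other two were below every WT library.

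The mutants were then compared with each other. Notch3, Jag1 and Nrarp were called higher in G9Gl than in S1S2 cells, which made 3 of the 7 tested genes, where 13.1% of all genes tested were called, 7.97% higher and 5.08% lower in G9Gl. The log2 fold changes were 1.44 for Notch3 (± 0.099 SE, with an adjusted p of 1.04e-09), 1.54 for Jag1 (± 0.127 SE, with an adjusted p of 5.21e-09) and 1.66 for Nrarp (± 0.132 SE, with an adjusted p of 1.02e-06). For Jag1 the G9Gl libraries lay within the WT range, while for Notch3 and Nrarp the 2 mutants lay on opposite sides of WT. Notch2 was lower in G9Gl than in S1S2 cells (-0.44 ± 0.022 SE, with an adjusted p of 4.53e-07), and Notch1 was slightly higher (0.18 ± 0.031 SE, with an adjusted p of 0.00643), both under the fold change cutoff. Hes1 (0.20, adjusted p = 0.0749) and Dll1 (-0.24, adjusted p = 0.644) did not pass the test. With no cutoff on the fold change, 5 of the 7 tested genes passed an adjusted p of 0.01 and 5 one of 0.05, where 42.6% and 53.3% of all genes tested did. Libraries of the mutants did not overlap for 6 of the 7 tested genes and for 60.8% of all genes tested. This contrast shares its libraries with the comparisons against WT, so the 3 sets of values are not independent.

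**Figure D3:**
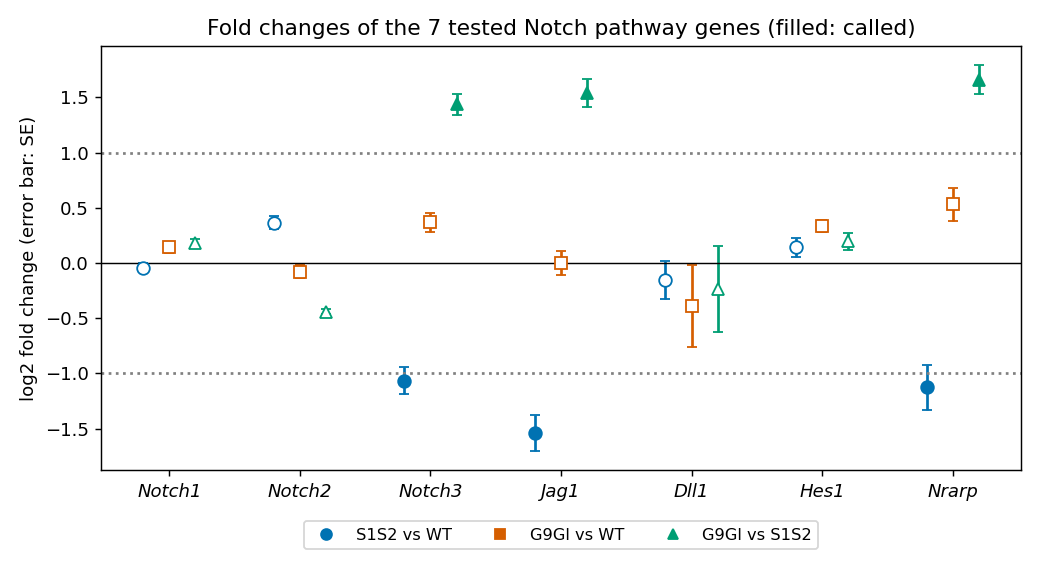
Log2 fold changes with SE for the 7 tested genes in S1S2 against WT (circles), G9Gl against WT (squares) and G9Gl against S1S2 (triangles), where filled symbols mark called genes and dotted lines a fold change of 2. Notch3, Jag1 and Nrarp are filled in S1S2 against WT and, with the opposite sign, in G9Gl against S1S2, and no square is filled.

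The 3 Hey genes, which encode a further family of Notch-induced repressors, were nearly silent and fell under the filter on low counts. Hey2 (chromosome 10, 30832359 to 30842801) had 0, 0 and 3 counts in the WT libraries, 6, 7 and 3 in S1S2 and 5, 17 and 34 in G9Gl. The G9Gl libraries spread widely, from 0.175 to 1.11 CPM, but all lay above WT. The ratio of pooled counts to WT was 20.1 for G9Gl, with an exact 95% interval of 6.54 to 100.5, and 7.10 for S1S2, with an interval of 2.03 to 38.0. These intervals cover counting error only and not the spread between libraries. With no filter, edgeR's adjusted p for Hey2 was 5.84e-09 in G9Gl and 0.00605 in S1S2 cells against WT, and DESeq2 gave 3.69e-04 and 0.0349. The edgeR values with no filter are not comparable with those of the main fit. In S1S2 against WT the adjusted p of Jag1 was 9.93e-44 with no filter and 8.30e-09 in the main fit. That of Hes1 was 0.432 with no filter and 0.213 in the main fit. At the usual filter Hey2 entered the comparison of G9Gl with WT when a WT library or G9Gl replicate 1 was left out, which it did through its counts in G9Gl replicates 2 and 3, so a call there is no support. Its log2 fold change then ran from 3.59 to 7.15. The 7.15 came without WT replicate 3, where the WT libraries left had 0 counts, so its size there is not determined. Hey2 did not enter when G9Gl replicate 2 or 3 was left out. In S1S2 against WT it was not called in any of the 6 fits that left out a library, with edgeR adjusted p from 0.0131 to 0.142.

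Hey1 (chromosome 3, 8663359 to 8667256) had 21 counts over the WT libraries and 13 over those of each mutant. Its ratios to WT of 0.824 in S1S2 and 0.668 in G9Gl cells had exact 95% intervals of 0.379 to 1.72 and 0.307 to 1.40, so no difference was detectable at this depth. Heyl (chromosome 4, 123233556 to 123249875) had 1 count in all 9 libraries together.

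Nrarp had the widest range of genotype means among the tested genes, 1.62 on the log2 CPM scale. Outside the gene lists, the genes whose log2 CPM, centred on WT, lay closest to it over the 9 libraries were Cd302, Col4a5 and Tlr4, at Euclidean distances of 0.476, 0.483 and 0.485. Cd302, a C-type lectin receptor on chromosome 2 like Nrarp, went from 15.8 ± 0.803 CPM in WT to 7.65 ± 0.538 in S1S2 and 25.0 ± 0.694 in G9Gl cells (SD, n = 3). Col4a5, a chain of basement membrane collagen, went from 165 ± 2.24 to 80.3 ± 2.94 and 257 ± 7.28 CPM. Tlr4, a receptor for bacterial lipopolysaccharide, went from 30.4 ± 3.52 to 15.1 ± 1.41 and 43.4 ± 3.08 CPM. The likeness is a description of 9 libraries that fall into 3 genotypes.

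The rest of the pathway was examined in a list of 60 further genes, 49 of which were tested. In S1S2 cells 5 of the 49 were called, 4 higher (Jag2, Dlk2, Neurl1b, Neurl3) and 1 lower (Tle4), where 9.0% of all genes tested were called. Neurl1b and Neurl3 passed the filter through their counts in S1S2 libraries, so their calls are no support for a direction of the list, and with 10 counts required in every library Dlk2, Jag2 and Tle4 were left. In G9Gl cells 2 of the 49 were called, Dtx4 higher and Jag2 lower, where 10.2% of all genes tested were. Without the fold change cutoff, 13 rose and 11 fell in S1S2 cells at an adjusted p of at most 0.01, where 37.9% of all genes tested passed, and 8 rose and 8 fell in G9Gl cells, where 35.0% passed. Their median log2 fold change was -0.02 in S1S2 and 0.02 in G9Gl cells, beside -0.0032 and -0.0067 over all genes tested.

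Among ligands, Jag2, the second Jagged ligand, moved opposite to Jag1 in S1S2 cells. It was read at 2.46, 2.15 and 2.51 CPM in WT, 7.17, 6.92 and 5.83 in S1S2, and 0.807, 0.682 and 1.04 in G9Gl libraries. The 3 genotypes did not overlap. The log2 fold change was 1.48 in S1S2 (± 0.114 SE, with an adjusted p of 3.40e-07) and -1.48 in G9Gl cells (± 0.178 SE, with an adjusted p of 8.80e-06), and the direct contrast was -2.96 (± 0.188 SE, with an adjusted p of 2.47e-10). Dlk2, a Delta-like protein without the canonical ligand domain, rose from 11.6 ± 2.65 to 26.2 ± 1.34 CPM in S1S2 cells (log2 fold change 1.17 ± 0.200 SE, with an adjusted p of 2.86e-07). Notch4 stood at 0.405 ± 0.0676 CPM in WT and passed the test in no comparison.

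The genes for receptor cleavage, and Rbpj, stayed under the cutoff in both mutants. Adam10, the main protease of the first cut, stood at 168 ± 5.06 CPM in WT, 169 ± 5.32 in S1S2 and 171 ± 4.28 in G9Gl cells (SD, n = 3). Of the 10 cleavage genes, none was called in either mutant, where 9.0% and 10.2% of all genes tested were. At an adjusted p of at most 0.01 with no cutoff on the fold change, 3 of the 10 rose and 1 fell in S1S2 cells, where 20.3% and 17.6% of all genes tested did, and 2 fell in G9Gl cells, where 16.0% did. Their log2 fold changes lay between -0.46 and 0.40 in S1S2 cells. Rbpj rose from 96.2 ± 0.161 to 137 ± 2.32 CPM in S1S2 cells, a log2 fold change of 0.51 (± 0.014 SE, with an adjusted p of 1.01e-08) that is under the cutoff, and was at 98.5 ± 1.46 CPM in G9Gl cells. Lfng, a Fringe enzyme that sugars the receptor and so alters its choice of ligand, was under the cutoff as well, with a log2 fold change of 0.75 (± 0.133 SE, with an adjusted p of 4.83e-06) in S1S2 cells.

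Neuralized and Deltex genes encode ubiquitin ligases that act on ligands and receptors. Neurl1b had 6, 4 and 8 counts in WT, 22, 36 and 26 in S1S2, and 2, 0 and 3 in G9Gl libraries, so that only S1S2 cells held it clearly above the floor. Its ratio of pooled counts in S1S2 against WT was 6.21, with an exact 95% interval of 3.70 to 11.0. Neurl3 went from 6, 3 and 4 counts in WT to 35, 42 and 28 in S1S2 libraries, a ratio of 10.8 with an interval of 6.02 to 20.9, and had 1, 0 and 8 counts in G9Gl libraries. Both intervals cover counting error only and not the spread between libraries. Dtx4 was at 21.6 ± 0.490 CPM in WT and 51.2 ± 0.717 CPM in G9Gl cells (log2 fold change 1.24 ± 0.022 SE, with an adjusted p of 2.72e-12), with S1S2 cells between them at 30.9 ± 1.20 CPM. Dtx4 lies on chromosome 19, whose median gene was at 0.34 in S1S2 and -0.17 in G9Gl cells, and with these medians removed Dtx4 was at 0.18 and 1.41.

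Tle4, a Groucho corepressor that Hes proteins recruit, followed the order of Notch3. It fell from 4.73 ± 0.495 to 1.81 ± 0.109 CPM in S1S2 cells (log2 fold change -1.38 ± 0.097 SE, with an adjusted p of 5.59e-07) and was at 8.58 ± 0.610 CPM in G9Gl cells (0.86 ± 0.103 SE, with an adjusted p of 7.05e-06), without overlap between the genotypes. Tle4 is on chromosome 19 as well, and with chromosome medians removed it was at -1.72 in S1S2 and 1.02 in G9Gl cells, where it was then called. Between the mutants 4 of the 49 tested genes were called, Tle4 higher in G9Gl cells and Jag2, Neurl1b and Neurl3 lower, where 13.1% of all genes tested were called. Neurl1b and Neurl3 again passed the filter through S1S2 libraries, and with 10 counts required in every library 2 calls were left, Jag2 and Tle4. Of the other Hes genes, Hes2, Hes3 and Hes5 had 0 counts in every library. Hes6 was lower in G9Gl than in WT cells at an adjusted p of at most 0.01, under the fold change cutoff, where 16.0% of all genes tested were lower.

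**Figure D4:**
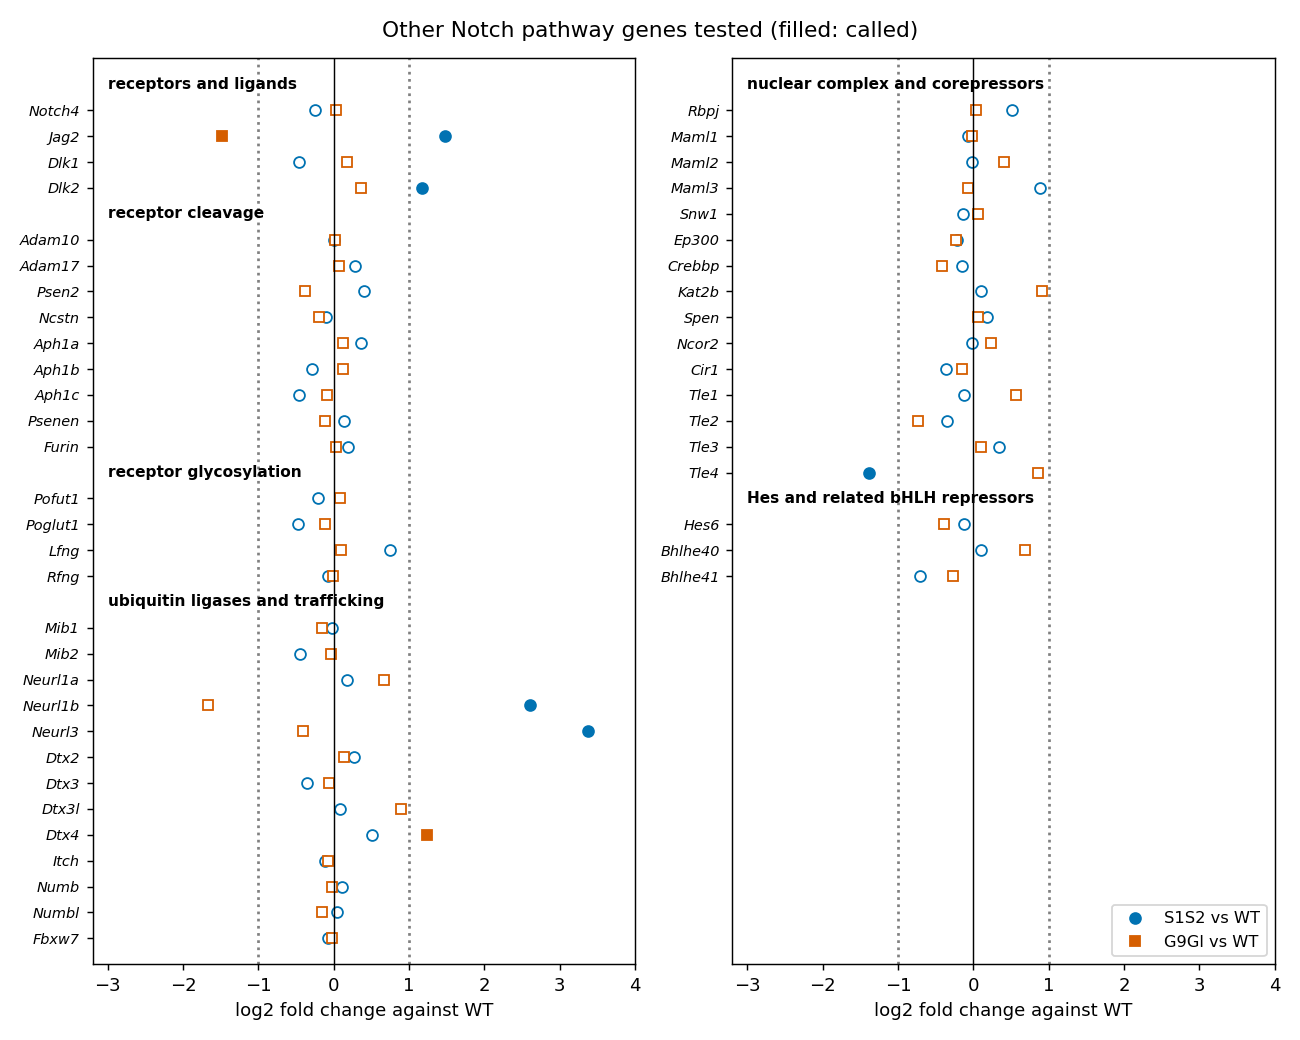
Log2 fold changes against WT of further pathway genes tested, grouped by role, for S1S2 (circles) and G9Gl (squares), with filled symbols for called genes and dotted lines at a fold change of 2. Most symbols lie between the dotted lines. Jag2 is filled on both sides, Neurl3, Neurl1b and Dlk2 on the right for S1S2, Tle4 on the left for S1S2, and Dtx4 on the right for G9Gl.

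Markers of cell types in which Notch genes are prominent were read beside these results. The 6 smooth muscle and pericyte markers summed to 59.5 to 70.5 CPM in WT, 59.3 to 63.1 in S1S2 and 87.6 to 96.8 CPM in G9Gl libraries, most of it Smtn, while Rgs5 had at most 1 count in a library. At an adjusted p of at most 0.01, none of the 4 tested markers of that list rose and 1 fell in S1S2 cells, and 3 rose and none fell in G9Gl cells. Over all genes tested 20.3% rose and 17.6% fell in S1S2 cells, and 19% rose and 16.0% fell in G9Gl cells. In the direct contrast all 4 tested markers were higher in G9Gl than in S1S2 cells, where 21.6% of all genes tested were. Mylk, the kinase of myosin light chain, was the marker that fell in S1S2 cells, and it was named after its values were seen. It stood at 5.20 ± 0.403 CPM in WT, 2.37 ± 0.161 in S1S2 and 17.4 ± 0.994 in G9Gl cells (SD, n = 3). The 6 endothelial markers summed to at most 0.193 CPM in WT, 1.75 in S1S2 and 2.35 CPM in G9Gl libraries, and Emcn had no count. Of the 9 tested fibroblast markers, 6 fell and 2 rose in S1S2 cells and 7 fell and 1 rose in G9Gl cells, against those same shares of all genes. In S1S2 cells Col1a2 fell by 2.60 and Thy1 fell by 1.29 on the log2 scale, and Vim rose by 0.72, examples named after their values were seen. The part of these markers, the epithelial and neural ones included, in the Notch results was not tested.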

How the data were processed

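Total RNA libraries (TruSeq Stranded Total RNA Gold) of 9 MEF cultures were analysed, 3 per genotype, which the study's methods call biological replicates. Per the labels and the study's methods, the authors trimmed paired-end reads with cutadapt, mapped the trimmed reads by STAR 2.5.2b on GRCm38 under the settings of TEtranscripts and counted genes with TEtranscripts. What the authors deposited are unnormalised counts, 1 row per Ensembl gene. The annotation release and the strand setting are not given in the sources used here, and reads that align to several places can be shared among genes. Of 47937 genes, 47310 matched GENCODE M21 (GRCm38) by identifier without version, which gave symbols, positions and exon lengths.

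Counts were tested in R 4.3.3 with edgeR 4.0.16 (filterByExpr, TMM, glmQLFit, glmQLFTest), all 9 libraries being fitted together by genotype, which left 15540 genes. CPM are scaled by TMM factors, RPKM divides them by the union of exons, and SE come from log2 CPM with a prior count of 2. Unless another tool is named, adjusted p-values are those of this edgeR test, by Benjamini-Hochberg over all genes tested. The fit was tested on simulated data. Counting depth limits genes near the floor of 3 counts, and because no molecular identifiers were used, a read need not be a separate molecule.

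The 10 genes and all lists were chosen with earlier results of these data known. Named genes are these 10, Rbpj, Adam10 and Notch4, the further pathway genes called in any contrast, and the 3 genes closest to the tested gene with the widest range. The rule also held a core factor that is not reported here. Lfng, Hes2, Hes3, Hes5 and Hes6, the targeted genes and single markers were named after their values were seen. Replicate numbers were checked for pairing and did not pair the libraries. No pair of replicates agreed within counting noise, the chi-square per degree of freedom being at least 2.63. Alternatives were DESeq2 1.42.0, other scaling, filters and thresholds, a fit of only the libraries compared, a replicate block, removal of chromosome medians and leaving out each library. Sequences came from RefSeq (GRCm38.p6).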

Additional observations from a re-analysis of the deposited data

Results flagged for a closer look

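In 3 of the 7 tested Notch genes and 4 of the 49 tested further pathway genes the effects of the 2 mutants relative to WT differed by the direct contrast (edgeR, adjusted p at most 0.01 and fold change of at least 2), where 13.1% of all genes tested were called, so the count over both lists is no result about the pathway. With S1S2 cells as the reference, the log2 fold change in G9Gl cells was 1.44 for Notch3, 1.54 for Jag1, 1.66 for Nrarp, 2.24 for Tle4, -2.96 for Jag2, -4.27 for Neurl1b and -3.79 for Neurl3. Jag2 and Tle4 passed an adjusted p of at most 0.01 in opposite directions in the mutants, as did Notch3, whose rise in G9Gl cells missed it without WT replicate 2 (edgeR adjusted p = 0.0107) or G9Gl replicate 2 (0.0104). The adjusted p of Nrarp in G9Gl cells missed that threshold with every library in. The values of Neurl1b and Neurl3 rest on 5 and 9 counts over the G9Gl libraries and both genes passed the filter through their S1S2 counts. With 10 counts required in every library, Jag2 and Tle4 were the further pathway genes left.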

How the results depend on the processing

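Counts are given in the order S1S2 to WT, G9Gl to WT, and between the mutants. Without a cutoff on the fold change, more genes passed an adjusted p of 0.01. Of the 10 genes 4, 2 and 5 passed, of the 60 further pathway genes 24, 16 and 27, and of all genes 5895, 5438 and 6622. At an adjusted p of at most 0.05 these became 4, 4 and 5, then 29, 18 and 33, then 7599, 7138 and 8288. With at least 10 counts required in every library, 728, 682 and 962 genes were called, among the further pathway genes 3 in S1S2 against WT and 2 in G9Gl against S1S2. With glmTreat against a fold change of 2, 735, 1045 and 1341 genes were called, 1 of the 10 genes (Jag1) and 2 further pathway genes in S1S2 against WT, and 1 further gene in G9Gl against WT. With no filter Hey2 was called higher in each comparison, which gave 4, 1 and 4 of the 10 genes, and with DESeq2 it was called in G9Gl against WT, 1 of the 10. With chromosome medians removed, 4 further pathway genes were called in that comparison, and Notch3 in S1S2 against WT was at -0.97. Between the mutants, 6 further pathway genes were then called, 3 higher and 3 lower in G9Gl cells.

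Leaving out 1 library at a time gave 2 to 3, 0 to 1 and 3 to 4 of the 10 genes, 5 to 6, 2 and 4 to 5 further pathway genes, and 1296 to 1426, 1515 to 1599 and 1981 to 2076 genes. The 1 gene in G9Gl against WT and the gene added between the mutants were Hey2. It passed the filter through its G9Gl counts, so these calls are no support. Nrarp in S1S2 against WT was at -0.96 without WT replicate 1. Replicate numbers do not pair the libraries, since deviations of same-numbered libraries correlated at -0.069 to 0.124 and 6 of 18 comparisons were highest for the shared number. With a replicate block 1383, 1568 and 2022 genes were called, with 3, 0 and 3 of the 10 genes and 5, 2 and 4 further pathway genes. The cause of these shifts was not tested. The low counts of Hey1, Hey2 and Heyl limit what can be said of them, and Dll1 in G9Gl against WT ran from -0.95 to -0.17 with 1 library left out. In the same way Dll1 ran from -0.31 to -0.02 in S1S2 against WT and from -0.79 to -0.01 between the mutants.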
